A study of Mus musculus with 4 samples.

Results

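CXC chemokines and their receptors were followed through a time course of β3-adrenergic stimulation in mouse epididymal white fat. The set was 7 chemokine genes (Cxcl1, Cxcl2, Cxcl5, Cxcl9, Cxcl10, Cxcl12 and Cxcl13) and 2 receptor genes (Cxcr2 and Cxcr4), chosen by symbol in the annotation of the array. All 9 had a probe set, and together they took 12 of the 12422 probe sets against transcripts, or 9 of 8251 named genes. The 4 arrays, 1 for each group with no replicates, held RNA pooled from male C57 BL6 mice aged between 3 and 4 months. They covered a control and mice that had received CL 316243 for 1, 3 or 6 days at 3 nmol/hr. CL 316243 activates the β3-adrenergic receptor, through which noradrenaline drives lipolysis in rodent fat. The titles of the day 1 and day 3 arrays transpose the last digits of its number, and were taken to mean the same compound. The sources used here do not say what the control mice received or how many mice made up a pool, and no group carried a transgene or a second agent by the labels.

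CXC chemokines are small secreted proteins that steer leukocytes along a concentration gradient by acting on G protein-coupled receptors. In mice Cxcl1, Cxcl2 and Cxcl5 carry a glutamate-leucine-arginine (ELR) motif and act on Cxcr2, the main chemokine receptor of neutrophils. Cxcl9 and Cxcl10 are induced by interferon and act on Cxcr3 of activated T cells and natural killer cells, Cxcl12 acts on Cxcr4 to retain leukocytes and stem cells in tissues, and Cxcl13 draws B cells through Cxcr5.

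Values are linear probe set intensities after each array was scaled to a common trimmed mean. Before any ratio, values were raised to a floor of 173 units, the 40th percentile of all values, below which no order was read. A gene counts as higher or lower when the ratio after the floor was at least 2-fold, and a fold is written as "at least" where the dimmer array lay at the floor. With 1 array per group no difference has a replicate check and no test was possible. A measurement error was estimated from genes with 2 probe sets. Against control it was 0.336 (log2) at day 1 over 692 genes, 0.274 at day 3 over 716 genes and 0.257 at day 6 over 712 genes, so that 3 errors correspond to a ratio of 2.01, 1.77 or 1.71. This error holds no variation between animals or pools, and 4 arrays limit the precision. The 3 comparisons with control share the control array.

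After 1 day of CL 316243, the neutrophil-attracting chemokines Cxcl1, Cxcl2 and Cxcl5, their receptor Cxcr2, and the pair Cxcl12 and Cxcr4 were higher than in control, and Cxcl9 was lower. Counted over the 9 genes, 6 were higher and 1 was lower, and the other 2, Cxcl10 and Cxcl13, lay at or below the floor on all 4 arrays. Over the 6269 genes above the floor on at least 1 array, 7.51% were higher and 8.36% were lower in the same comparison. The 7 CXC genes above the floor on at least 1 array had a median log2 change of 3.11 at day 1, beside -0.02 over the 6269 genes. These genes were chosen with the results of this comparison known, so the counts describe them and support nothing further. At day 3 against control 2 of the 9 genes, Cxcl2 and Cxcl12, were higher and 0 were lower, where 3.80% and 3.25% of all genes were. At day 6 against control 0 were higher and 0 were lower, beside 1.72% and 1.63% of all genes, and the medians of the 7 genes were 0.62 at day 3 and 0.00 at day 6. The floor sets this 0.00, since Cxcl1, Cxcl2, Cxcl5, Cxcr2 and Cxcr4 lay at it on both the control and the day 6 array. Cxcl5 and Cxcr2 are among the 7 only through their day 1 values.

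**Figure D1:**
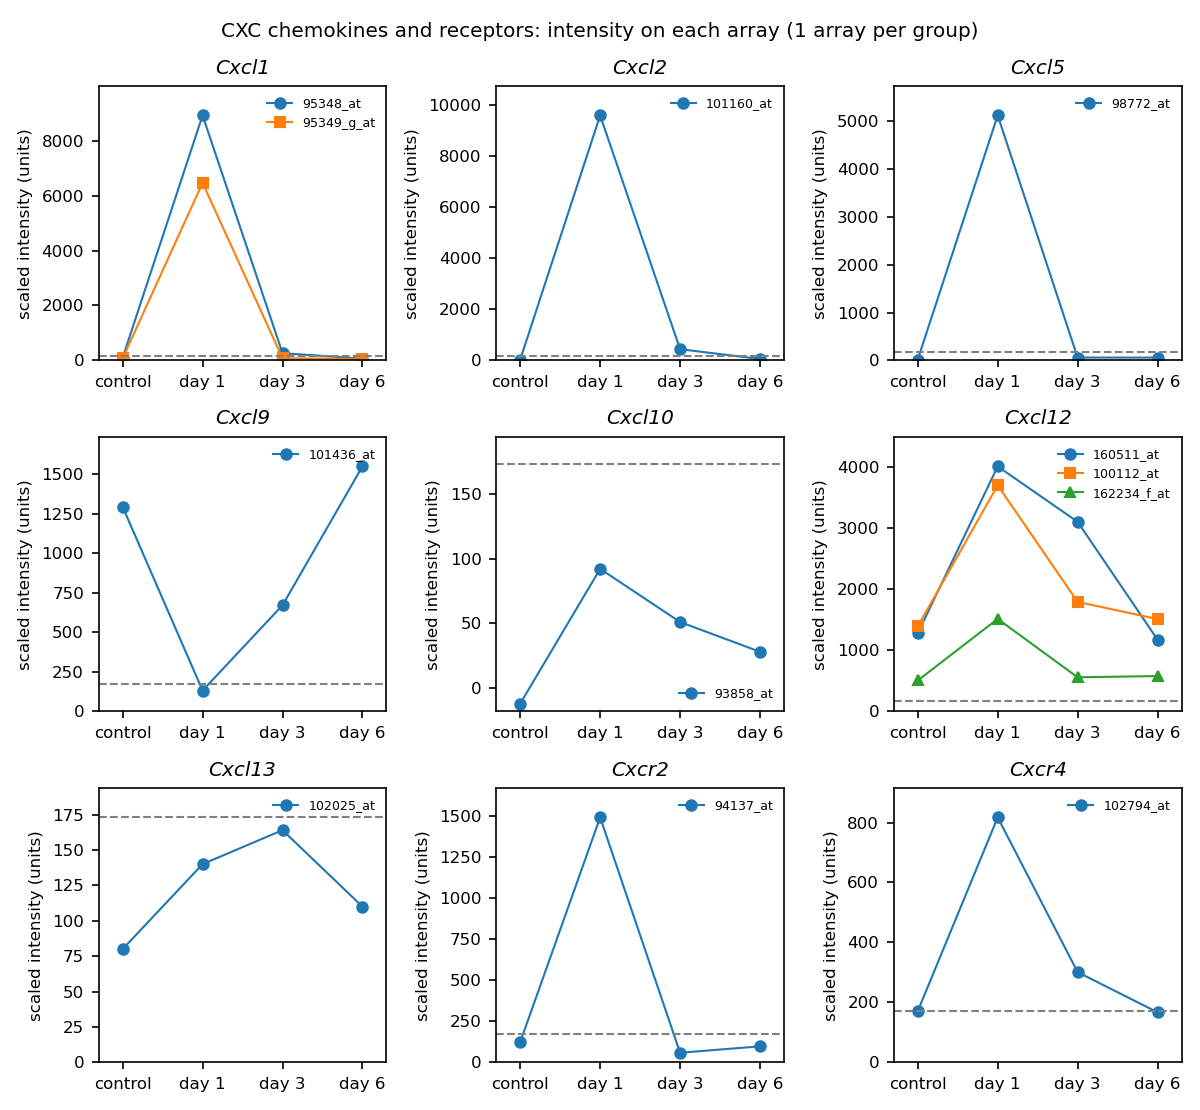
Scaled intensity in linear units of each CXC chemokine and receptor gene on the control, day 1, day 3 and day 6 arrays, with a line for each probe set; lines only join the arrays and the dashed line is the floor of 173 units. Cxcl1, Cxcl2, Cxcl5 and Cxcr2 stand out on the day 1 array, Cxcl9 is lowest there at 132 units, and Cxcl10 and Cxcl13 stay under the floor throughout; the vertical axes differ between panels.

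The 250 bases before the annotated start of transcription are shown for Cxcl1 and Cxcl2, whose values moved together, for Cxcl10, which shares a motif with them but stayed below the floor, and for Cxcl9, which moved the other way. All 4 genes lie on chromosome 5, where Cxcl1 and Cxcl2 are adjacent protein-coding genes and Cxcl9 and Cxcl10 are separated by Art3. The sequences are from RefSeq on GRCm38.p6, written 5′ to 3′ on the strand of the gene, and capitals mark each stretch that matches the NF-kB consensus on either strand, with overlapping matches joined. NF-kB is a transcription factor that inflammatory signals activate.
Cxcl1, chr5:90890995-90891244, plus strand: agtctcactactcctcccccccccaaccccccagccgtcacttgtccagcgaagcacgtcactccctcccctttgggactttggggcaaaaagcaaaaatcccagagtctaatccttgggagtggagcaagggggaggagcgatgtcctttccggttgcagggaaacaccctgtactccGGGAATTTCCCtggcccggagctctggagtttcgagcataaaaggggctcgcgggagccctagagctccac
Cxcl2, chr5:90903649-90903898, plus strand: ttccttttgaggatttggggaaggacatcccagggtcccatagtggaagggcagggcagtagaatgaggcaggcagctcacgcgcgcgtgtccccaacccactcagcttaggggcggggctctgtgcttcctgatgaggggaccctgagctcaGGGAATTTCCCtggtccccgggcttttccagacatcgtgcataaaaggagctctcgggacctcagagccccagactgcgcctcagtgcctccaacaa
Cxcl10, chr5:92348890-92349139, minus strand: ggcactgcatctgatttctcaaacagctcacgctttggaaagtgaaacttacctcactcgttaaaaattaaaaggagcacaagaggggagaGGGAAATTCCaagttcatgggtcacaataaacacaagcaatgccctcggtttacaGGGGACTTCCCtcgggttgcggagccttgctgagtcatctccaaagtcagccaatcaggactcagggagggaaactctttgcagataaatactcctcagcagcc
Cxcl9, chr5:92328080-92328329, minus strand: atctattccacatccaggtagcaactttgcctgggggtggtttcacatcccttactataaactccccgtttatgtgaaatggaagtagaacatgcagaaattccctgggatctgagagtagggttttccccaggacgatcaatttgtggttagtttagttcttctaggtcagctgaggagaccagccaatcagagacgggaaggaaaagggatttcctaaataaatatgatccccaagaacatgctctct
Cxcl1 and Cxcl2 hold the same 11-base stretch, GGGAATTTCCC, in which 2 overlapping matches lie on opposite strands. It starts 71 bases before the start of Cxcl1 and 97 bases before that of Cxcl2, and with the 3 bases after it forms the longest run the 2 windows share, 14 bases. Cxcl10 has a match of 10 bases that starts 159 bases before its start and a stretch of 11 bases that starts 104 bases before it. Of the 9 genes, 8 had a promoter in the table and 3 of these 8 held a match, while 7.25% of all 32851 promoter windows of this length did. Cxcl5 was the gene without a promoter there. Cxcl12, Cxcr2 and Cxcr4, which were higher at day 1 as Cxcl1 and Cxcl2 were, held no match. The 11-base stretch itself is in 14 of the 32851 windows (0.0426%), among them that of Cxcl3, another ELR chemokine gene that was not analysed here. The motif TTCNNNGAA, a form of the site read by STAT factors, was in 0 of the 8 windows and in 7.02% of all windows, both strands searched. The motif TATAAA was in the windows of Cxcl9, Cxcl13 and Cxcr4 and in 12.4% of all windows, both strands searched. Of the windows shown, that of Cxcl9 alone held TATAAA and it has no NF-kB match, so no overlap with these 2 motifs was possible there. A match describes letters in the window and not a site in use, and the windows without a match say nothing about the factor.

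The ELR chemokine genes were below the floor in control fat and bright on the day 1 array. Cxcl1, a neutrophil attractant, had 99 intensity units on the control array and 8918, 265 and 64 units after 1, 3 and 6 days by probe set 95348_at. Its other probe set, 95349_g_at, had 77 units in control and 6463, 79 and 52 units on the treated days. At day 1 Cxcl1 was at least 51.5-fold above control by the brighter probe set and at least 37.4-fold by the other. The 2 probe sets differ at day 3, where 95348_at was above the floor and 95349_g_at was not. Cxcl2, its neighbour and close paralog, had 32 units in control and 9604, 440 and 57 units on the treated days, which made it at least 55.5-fold higher at day 1 and at least 2.54-fold higher at day 3. Cxcl2 was therefore the ELR gene still past 2-fold at day 3, although under a floor at the 60th percentile both arrays lay at it. Cross-hybridisation between these paralogs was not tested.

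Cxcl5, the third ELR chemokine, had 19 units in control and 5118, 60 and 59 units after 1, 3 and 6 days, at least 29.6-fold higher at day 1. It was above the floor on the day 1 array alone. From day 1 to day 3 each ELR gene dropped: the day 3 array was 33.6-fold below the day 1 array for Cxcl1, 21.8-fold for Cxcl2 and at least 29.6-fold for Cxcl5. Over the 9 genes, 5 were lower and 1 was higher at day 3 than at day 1, where 6.30% and 5.81% of the 6269 genes were.

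Cxcr2, the receptor for these ligands, had 124 units in control and 1494, 59 and 98 units on the treated days. It was above the floor at day 1 alone, at least 8.63-fold higher than control, so the receptor and its 3 ligands shared the day 1 array as their highest. In whole tissue, more cells of a type and more RNA per cell cannot be told apart. Neutrophil markers moved on the same arrays: of 15 measured, 8 were higher and 2 were lower at day 1 than in control, and their summed intensity was 8311 units in control and 94267, 9763 and 4957 units after 1, 3 and 6 days. The calcium-binding protein gene S100a8 had 414 units in control and 40305, 1494 and 643 units on the treated days. S100a9, of the same family, had 119 units in control and 26727, 540 and 13 units. Together S100a8 and S100a9 make up most of the day 1 sum. Ly6g, a surface protein of mouse neutrophils, had -8 units in control and 597, 47 and -11 units. Mpo and Ngp, which mark immature neutrophils, were at or below the floor on all 4 arrays, and the granule protease genes Elane and Prtn3 were the 2 that were lower at day 1. Camp, at 460 units in control and 242 at day 1, and Ltf, at 117 and 50, were not higher at day 1 either. Both were named after their values were seen. The part of neutrophil number in the Cxcr2 result was not tested.

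**Figure D2:**
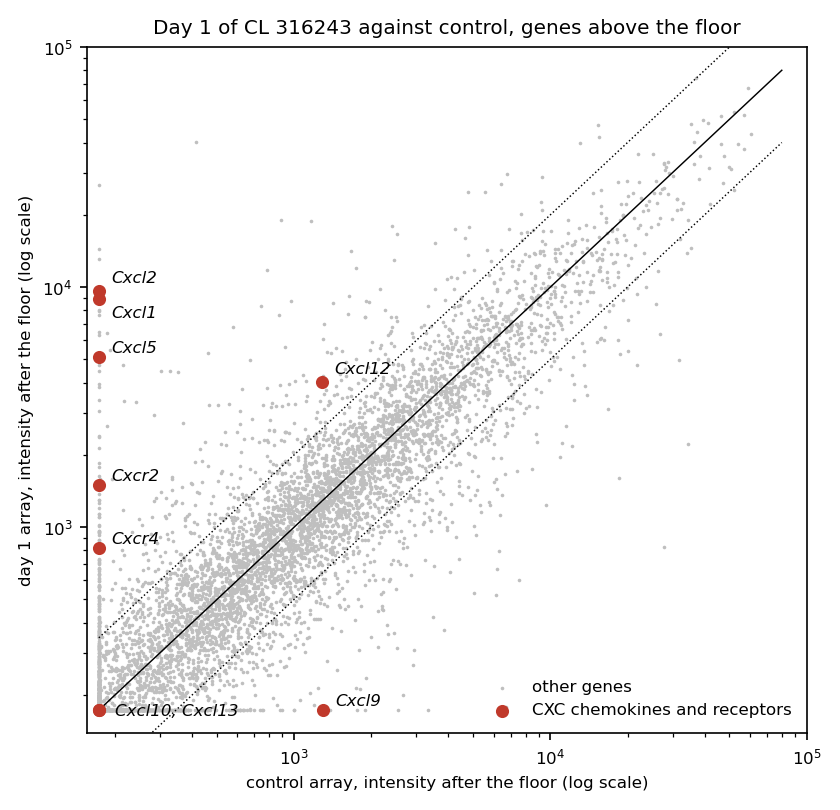
Intensity on the day 1 array against the control array after the floor, both on log scales, for the genes above the floor on either array (grey) and the 9 CXC genes (red). The solid line marks equal values and the dotted lines 2-fold; Cxcl2, Cxcl1, Cxcl5, Cxcr2 and Cxcr4 sit at the floor in control and above the upper dotted line at day 1, Cxcl12 lies above that line too, Cxcl9 lies at the floor at day 1, and Cxcl10 and Cxcl13 share the point at the floor on both arrays.

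The genes on the adhesion and release list, through which neutrophils leave marrow and blood, were counted next. Of 14 measured, some of which are on the neutrophil list too, 8 were higher and 1 was lower at day 1; the median log2 change was 1.55 over the 13 above the floor. Itgam, the alpha chain of the integrin Mac-1, had 186 units in control and 2629, 856 and 235 units after 1, 3 and 6 days. Mmp9, a gelatinase stored in neutrophil granules, was 12.6-fold higher at day 1. Selp, the P-selectin on which leukocytes roll, was at least 6.96-fold higher, and Selplg, its leukocyte ligand, was 4.67-fold higher. Csf3, the growth factor that mobilises neutrophils, had 319 units in control and 933, 362 and 389 units and was named after its values were seen. At day 3 the list counted 4 higher and 1 lower, and at day 6 it counted 1 of each.

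Transcription factors, cytokines and regulators that act on ELR chemokine genes or their messenger RNA were counted next. Of 17 measured NF-kB and related genes, 9 were higher and 0 were lower at day 1, with a median of 1.54 over the 15 above the floor; at day 3 and at day 6 the counts were 0 and 0. The cytokine Il1b, which induces Cxcl1 and Cxcl2, had 36 units in control and 13108, 121 and 8 units after 1, 3 and 6 days, so its course had the same highest array. Nfkbia, the inhibitor of NF-kB that NF-kB itself induces, was 4.78-fold higher at day 1, the inhibitor family member Nfkbiz 4.10-fold, and the factor Cebpb 4.29-fold. Zfp36, named after its values were seen, binds AU-rich messenger RNAs such as that of Cxcl1 and marks them for decay; it had 1012 units in control and 4066, 1285 and 711 units. Rela, a subunit of NF-kB with transactivating activity, had 5254 units in control and 6120, 4561 and 4963 units, within 2-fold throughout. Other subunit genes, named after their values were seen, differed from it. Relb was 2.9-fold and Nfkb2 3.46-fold higher at day 1, and Rel was at or below the floor on all 4 arrays. Tnf was at or below the floor on all 4 arrays.

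Cxcl12 differed from the ELR chemokines in that it was above the floor on every array by each of its 3 probe sets. By 160511_at it had 1281 units in control and 4017, 3108 and 1176 units after 1, 3 and 6 days. Probe set 100112_at gave 1394 units in control and 3707, 1796 and 1513 units on the treated days. Probe set 162234_f_at, of the kind that may read related sequences, gave 507 units in control and 1517, 559 and 580 units. At day 1 all 3 were higher than control, by 3.14-fold, 2.66-fold and 2.99-fold. At day 3 they split: 160511_at was 2.43-fold above control, while 100112_at was 1.29-fold and 162234_f_at 1.10-fold above it. Their log2 changes were 1.28, 0.37 and 0.14. The measurement error of 0.274 is that of a single log2 change, and the error of a gap between probe sets is larger. The mean log2 change of the 3 at day 3 was 0.60, so the day 3 call of Cxcl12 rests on 1 probe set. At day 6 all 3 were within 1.14-fold of control.

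Cxcr4, the receptor for Cxcl12, had 171 units in control and 817, 301 and 167 units after 1, 3 and 6 days. It was at least 4.72-fold higher at day 1 and at least 1.74-fold above control at day 3, short of 2-fold. Under a floor at the 60th percentile its log2 change at day 1 was 0.61, since the day 1 value lies close to that floor. Ackr3, the scavenger receptor that takes up and degrades Cxcl12, went the other way from Cxcl12 and Cxcr4: it had 1579 units in control and 970, 451 and 406 units, which put it 1.63-fold below control after 1 day, 3.50-fold after 3 and 3.89-fold after 6. Among the 9 CXC genes and the 12 other genes on the family list measured, Ackr3 was the gene past 2-fold at day 6.

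**Figure D3:**
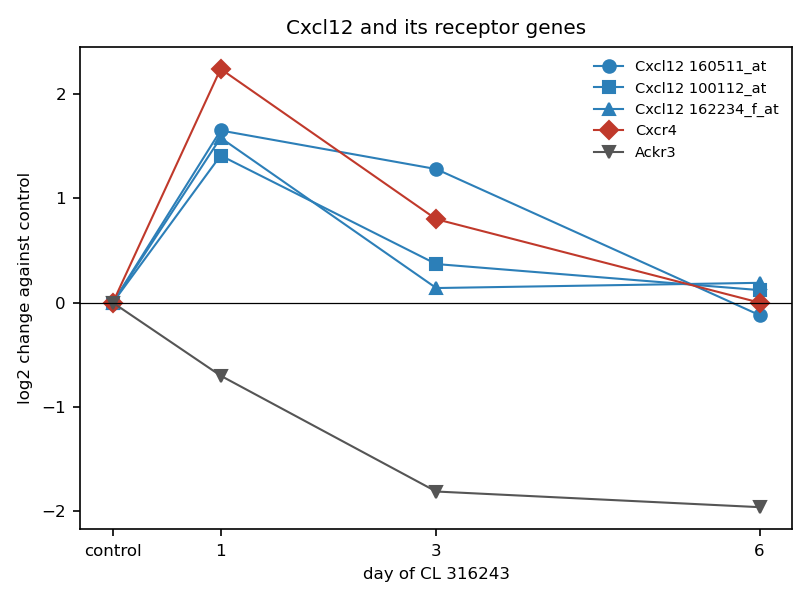
Log2 change against control at days 1, 3 and 6 for the 3 probe sets of Cxcl12 (blue), its receptor Cxcr4 (red) and the scavenger receptor Ackr3 (grey), with control at 0; there is 1 array per point. Cxcl12 and Cxcr4 are highest at day 1 (log2 changes of 1.41 to 1.65 and 2.24), the Cxcl12 probe sets separate at day 3, and Ackr3 is at -0.70, -1.81 and -1.96.

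Stromal and endothelial cells make Cxcl12 in many tissues, and their markers were counted on the same arrays. Of 11 fibroblast markers, 0 were higher and 4 were lower at day 1. Their median log2 change was -0.63, with a summed intensity of 71772 units in control and 51627, 63449 and 62828 units on the treated days. Of 9 endothelial markers, 0 were higher and 3 were lower, and their sum was 22800 units in control and 21793, 14870 and 20989 units. Macrophage markers had a summed intensity of 30877 units in control and 82020, 78110 and 36601 units after 1, 3 and 6 days, with 7 of 11 higher and 0 lower at both day 1 and day 3. Cd68, a lysosomal protein of macrophages named after its values were seen, had 1913 units in control and 8718, 10439 and 2867 units. The list was not uniform at day 1, and Itgam on it is on the adhesion list too. The markers within 2-fold of control at day 1, named after their values were seen, were Adgre1 (1.91-fold), Mrc1 (1.55-fold), Csf1r (1.06-fold) and Lyz2 (1.0-fold). The part of macrophages in the Cxcl12 and Cxcr4 values was not tested.

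Cxcl9, an interferon-induced attractant of T cells, was the CXC gene that was lower at day 1. It had 1295 units in control and 132, 672 and 1551 units after 1, 3 and 6 days. That is at least 7.48-fold below control at day 1, 1.93-fold below it at day 3, just short of 2-fold, and 1.20-fold above it at day 6. Between treated arrays, day 3 was at least 3.89-fold above day 1 and day 6 was 2.31-fold above day 3. In the comparison of day 6 with day 3, 1 of the 9 genes (Cxcl9) was higher and 2 (Cxcl2 and Cxcl12) were lower, where 1.5% and 2.65% of the 6269 genes were.

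Other genes of the interferon response split at day 1, with 2 higher and 4 lower of 17 measured and a median of -0.08 over the 16 above the floor. The 4 lower ones were Gbp3 and Gbp2, guanylate-binding proteins, Psmb9, a subunit of the immunoproteasome, and Ifit3, an antiviral protein. Gbp3 had 1401 units in control and 382, 816 and 1280 units after 1, 3 and 6 days, and Ifit3 had 587 units in control and 178, 335 and 608 units. Each of the 4 was lowest at day 1 and within 2-fold of control at days 3 and 6, as Cxcl9 was. They were picked for being lower at day 1, so their low day 1 values follow from that choice. The 2 higher ones were Ifngr2, a chain of the interferon gamma receptor, at 2.43-fold, and the kinase gene Jak2 at 2.01-fold. The transcription factor Irf1, named after its values were seen, had 1639 units in control and 1868, 1229 and 1590 units. It was lowest at day 3, as were Isg15 and Socs1 on the same list, also named after their values were seen. Ifng, the interferon that gives Cxcl9 its older name, was at or below the floor on all 4 arrays.

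**Figure D4:**
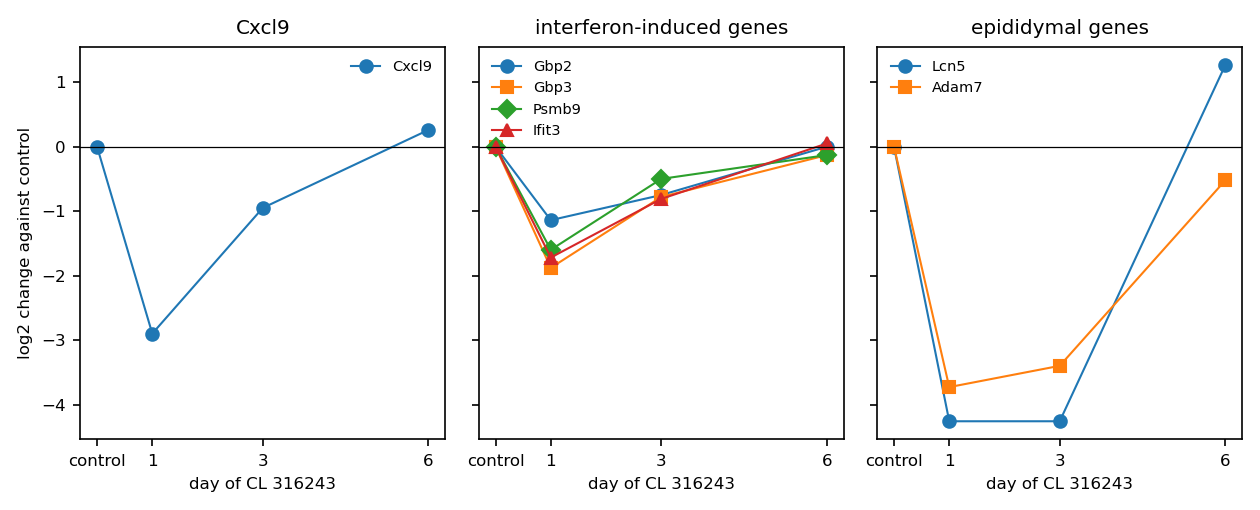
Log2 change against control at days 1, 3 and 6 for Cxcl9 (left), 4 interferon-induced genes that were lower at day 1 (middle) and 2 epididymal genes (right), with control at 0 and 1 array per point. Cxcl9 and the interferon-induced genes, picked for being lower at day 1, are lowest at day 1 and between that level and control at day 3. Lcn5 lies at the floor at days 1 and 3, so the floor sets its value of -4.26 on both. Adam7 is at -3.73 at day 1 and -3.4 at day 3. The part of epididymal RNA in the Cxcl9 course was not tested.

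Genes of the epididymis, which adjoins this fat pad, also differed between the arrays and were high on the control and day 6 arrays, as Cxcl9 was. Lcn5, a lipocalin secreted by the mouse epididymis, had 3321 units in control and 63, 7 and 8029 units after 1, 3 and 6 days. Adam7, a membrane protein of the epididymis, had 2654 units in control and 200, 251 and 1846 units. Of the 10 epididymis and testis markers measured, 1 was higher and 3 were lower at day 1, and the list summed to 13571 units in control and 11926, 4000 and 17593 units on the treated days; Star, 7991 units at day 1, makes up most of the day 1 sum. Prm2, Ldhc and Insl3 were at or below the floor on all arrays. Tnp1, on the same list, was above it on all arrays, at 1258 units in control and 1278, 1234 and 1709 units. Prm1 was above it at day 6 alone, at 307 units. Both were named after their values were seen. Clu, on the same list and named after its values were seen, had 6006 units in control and 2217, 1988 and 5411 units. On the day 3 array Cxcl9, at 672 units, was above the floor, as were Adam7 and Clu, while Lcn5 was not. The part of epididymal RNA in the Cxcl9 result was not tested.

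Most T cell transcripts were at or below the floor. Of 14 T and natural killer cell markers, 3 had a value above the floor and 0 passed 2-fold in either direction on any treated day; Cd3e, Cd3g, Cd3d and Cd8a were at or below the floor on all 4. Cd4, the co-receptor of helper T cells, was above it on every array, at 469 units in control and 426, 356 and 421 units after 1, 3 and 6 days. Cxcr3, the receptor for Cxcl9, had 137 units in control and 32, 194 and 56 units after 1, 3 and 6 days, so that the day 3 value alone was above the floor. Cxcl10, the relative of Cxcl9 that shares this receptor, had -12 units in control and 92, 51 and 28 units. A level below the floor on an array is not evidence that a gene is silent.

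Cxcl13, which organises B cell follicles, had 80 units in control and 140, 164 and 110 units after 1, 3 and 6 days, below the floor on each array. Its receptor gene Cxcr5 was likewise below the floor, with 43 units in control and 104, 2 and 127 units. B cell markers were present, with 8 of 10 above the floor on at least 1 array and a summed intensity of 21077 units in control and 8167, 12547 and 16657 units. Most of that sum was Ighm, the immunoglobulin mu chain, at 18367 units in control and 5992, 8790 and 13667 units. At day 1 the list had 1 higher gene, Cd79a, and 1 lower, Ighm.

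Beyond the 9 genes, 12 of 20 genes on a list of other CXC, XC and CX3C chemokines, their receptors and decoy receptors, and Dpp4, a peptidase that trims chemokines, had a probe set, and 8 of these were above the floor somewhere in the course. At day 1, 2 were higher and 0 were lower; the median log2 change was -0.19. Ackr1, which carries chemokines across venular endothelium, had 66 units in control and 629, 119 and 78 units, at least 3.64-fold higher at day 1. Cxcl14, an attractant made by epithelium, had 23 units in control and 399, 46 and -4 units, at least 2.30-fold higher. Both had the day 1 array as their only one above the floor, as Cxcl5 and Cxcr2 had. At days 3 and 6 the list counted 0 higher and 1 lower, Ackr3 each time. Cx3cl1, the membrane-bound chemokine fractalkine, had 454 units in control and 342, 393 and 508 units by its main probe set, and 510 units in control and 57, 264 and 502 units by the other, so that its 2 probe sets disagree at day 1.

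The signalling genes downstream of the receptors were counted in the same way. Of 19 measured, 5 were higher and 0 were lower at day 1, with a median of 0.38 over the 18 above the floor. These 5 are genes of blood cells, as is Dock2 on the same list, which was within 2-fold of control at day 1 (1.06-fold). Dock2 was named after its values were seen. Vav1, an exchange factor for Rac, had 175 units in control and 1589, 443 and 121 units after 1, 3 and 6 days, and was 9.07-fold higher at day 1. The Src-family kinase gene Fgr was 3.86-fold higher, Rac2, the Rac of blood cells, 3.80-fold, and the actin-binding protein gene Coro1a 3.46-fold. The broadly expressed Gnai2, a G protein alpha subunit that chemokine receptors use, had 22077 units in control and 27379, 20867 and 19633 units. The list counted 3 higher and 1 lower at day 3 and 2 higher and 0 lower at day 6. The G protein gamma subunit gene Gng2 and Rgs2, a regulator of G protein signalling, were the 2 higher at day 6 and were both named after their values were seen. Gng2 had 188 units in control and 268, 524 and 447 units, and Rgs2 had 493 units in control and 631, 1318 and 1615 units, so that both were within 2-fold at day 1 and past it at days 3 and 6.

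**Figure D5:**
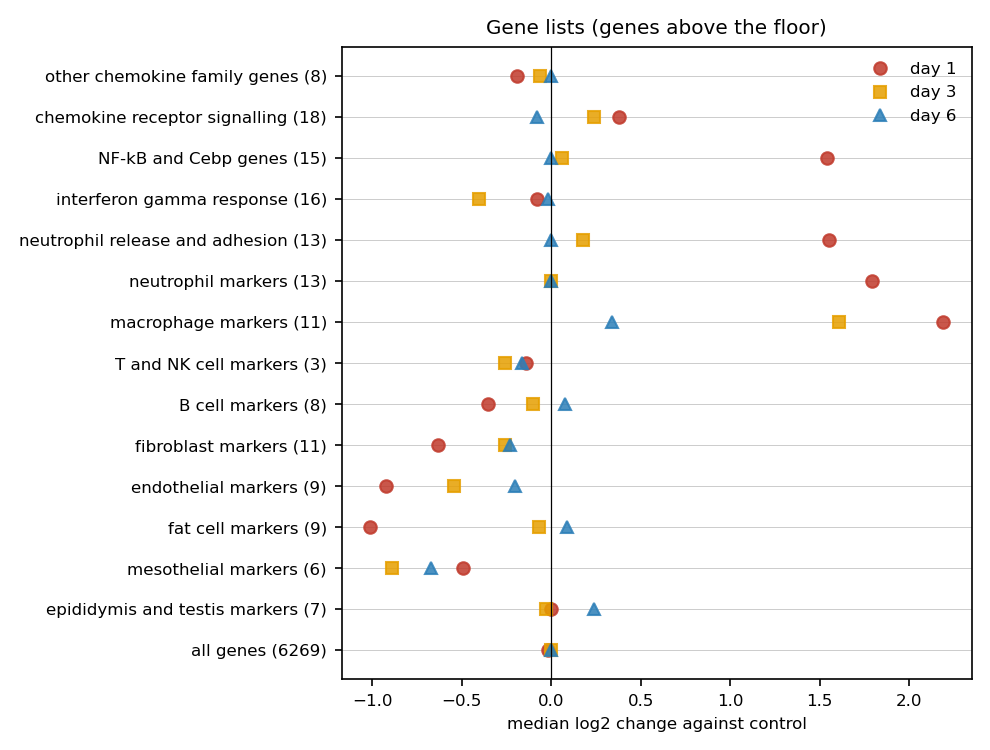
Median log2 change against control at days 1 (circles), 3 (squares) and 6 (triangles) for the gene lists beside the CXC genes and for all genes, with the number of genes above the floor on at least 1 array in brackets; 1 array per group. The NF-kB, adhesion and release, neutrophil and macrophage lists lie above 1.5 at day 1, and among these the macrophage list alone stays above 1 at day 3, at 1.61.

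The genes whose course was most like that of each CXC gene were found by Euclidean distance over the 3 log2 changes against control, from 4 arrays, among 5293 other genes with a value of at least 2 times the floor. Nearest to Cxcl1 were Star, a cholesterol carrier, Acod1, which makes itaconate, and Il1r2, a decoy receptor for interleukin 1, at distances of 0.16, 0.27 and 0.66. Acod1 had -2 units in control and 7959, 308 and 116 units after 1, 3 and 6 days, close to the course of Cxcl1. For Cxcl2 the nearest were Acod1, Star and Alpl, for Cxcl5 they were Ptx3, Slfn4 and Il1r2, and for Cxcr2 they were Fosl1, Tgm3 and Mxd1. Ptx3, a secreted pattern recognition protein, had 88 units in control and 4755, 148 and 26 units. Nearest to Cxcl12 were S100a4, Sh3bp2 and Ptafr, the receptor for platelet-activating factor, and nearest to Cxcr4 were Lcp2, Il1r1 and Fxyd5. S100a4, a calcium-binding protein of motile cells, had 1752 units in control and 5016, 4467 and 1419 units, following the Cxcl12 probe set that was still high at day 3. For Cxcl9 they were Smim1, 2310010J17Rik and Pxmp2, a peroxisomal membrane protein that had 5022 units in control and 532, 2905 and 4869 units. With values raised to the floor, genes at the floor on 3 arrays differ in 1 number only, so short distances to Cxcl5 and Cxcr2 are easily reached. Cxcl1, Cxcl2 and Cxcr4 were at the floor on the control and day 6 arrays. The floor thus sets their day 6 change to 0.0, and their courses differ at days 1 and 3 only.

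As a check of the tissue, the fat cell genes Adipoq and Lep were bright in control, at 52042 and 18447 units, and 5 of 9 fat cell markers were lower at day 1. Their summed intensity was 226118 units in control and 129848, 199569 and 224941 units after 1, 3 and 6 days, so the day 1 array, on which 6 of the 9 CXC genes were high, had the lowest fat cell sum. The part of this shift in the CXC values was not tested.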

How the data were processed

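Gene expression was measured in pooled epididymal white fat RNA on 4 Affymetrix arrays, 1 per group. The authors deposited linear probe set intensity values as whole numbers, and 12.2% to 12.4% of those on an array are not above 0. The sources used here do not say how the intensities were computed or normalized. Medians of 314 to 314.5 on every array show a shared distribution in the deposited intensities, so changes are relative to it. Each array was then scaled to a common mean of values between the 2nd and 98th percentiles (factors 0.999 to 1.001), and values were raised to the 40th percentile (173 units) and put on the log2 scale, with Python 3.11.15, numpy 2.4.6 and pandas 2.3.3. The 66 control probe sets were left out of all counts. Of 12422 probe sets, 10833 had 1 symbol, 396 had several and 1193 had none in the annotation table; a gene is represented by its probe set with the highest mean.

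The CXC genes and all gene lists were chosen with earlier results of these data known. Genes named beside them follow a rule: up to 4 per pathway list and 3 per marker list by size of change, past 2-fold and with a brighter value of at least 2 times the floor, plus the 3 nearest in course to each CXC gene, with cell type markers and family receptors; Rela, Tnf, Gbp2, Jak2, Ifng, Gnai2, Cx3cl1 and Dpp4, and the names marked so in the text, were chosen after their values were seen. Samples were grouped by title. With 1 array per group no test and no paired fit was made. Floors at the 25th and 60th percentiles, no scaling, quantile normalization, an added 100 units in place of the floor, the mean over probe sets, and thresholds of 1.5-fold and 3-fold were tried as alternatives. With 4 arrays precision is limited.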

Additional observations from a re-analysis of the deposited data

How the results depend on the processing

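No paired analysis was possible because each group has 1 array. Without scaling, and with quantile normalization, the median over all probe sets stayed at 0 and each count of CXC genes past 2-fold stayed within 1.5 times its main value. The median log2 change of the 7 genes above the floor at day 1 against control was 3.11, and 3.59 under a lower floor (25th percentile) or 1.65 under a higher one (60th). At day 3 against day 1 it was -3.11, and -4.45 or -1.48 with those floors. At day 3 against control it was 0.62, but 0.00 with the higher floor and 0.31 with the mean over probe sets; at day 6 against day 3 it was -0.62, but 0.00 and -0.31 under the same 2 settings. The count of higher genes at day 3 against control, 2, became 4 with the lower floor or a 1.5-fold threshold, 1 with the higher floor or the mean over probe sets, and 0 at 3-fold; the count of lower genes, 0, became 1 with the lower floor or at 1.5-fold. At day 3 against day 1 the 1 higher gene became 0 with the higher floor. At day 6 against day 3 the 1 higher gene became 0 at 3-fold, and the 2 lower genes became 4 at 1.5-fold, 1 with the higher floor or the mean over probe sets, and 0 at 3-fold. Of 270 values of single genes under the alternatives, 207 moved by less than the measurement error, 63 moved by more and 0 changed sign from a call. Many of the 207 had little or no room to move. The scaling factors were 0.999 to 1.001, so no scaling and quantile normalization change little. The mean over probe sets leaves genes with a single probe set as they were, and genes at the floor on all arrays stay at 0 under the higher floor. The floor is the limit of what dim genes can show here: folds against it are lower bounds.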

Other observations

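The 11-base stretch that Cxcl1 and Cxcl2 share was looked up in all promoter windows after the promoters were seen. Of the 14 genes that hold it, 4 were on the array: Cxcl1, Cxcl2, Hpn and Il16. Hpn, a membrane serine protease of liver, had 176 units in control and 209, 223 and 168 units after 1, 3 and 6 days. Il16, a cytokine released from its precursor in T cells, had 623 units in control and 652, 418 and 402 units. Among genes above the floor on the control or the day 1 array, 53 of 532 with an NF-kB consensus match (9.96%) were higher at day 1, as were 381 of 4867 with a promoter in the table (7.83%), and 7.52% and 8.34% were lower. The 4867 genes include the 532, so these are not separate groups. Cxcl1 and Cxcl2, whose promoters had been seen before the count, are among the 53.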
